A study of Mus musculus with 24 samples.

Results

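Circular RNAs were compared between cardiac fibroblast libraries taken 4 weeks and 1 week after TAC, in which a tied suture narrows the transverse aorta and raises the pressure load on the left ventricle (transverse aortic constriction). The 8 libraries, 4 per time, were chosen by treatment and week from the 24 of the series, and all 1717 circular RNAs of the deposited table were tested. Each library came from the heart of male C57BL/6J mice (the strain named as genotype), constricted at the age of 8 weeks. Sham-operated mice of the same strain and sex gave 5 libraries at 4 weeks and 4 at 1 week, which served for the question whether the interval itself mattered without constriction. The rest of the 24 were TAC and sham libraries taken 8 weeks after surgery, and all 24 entered the estimate of spread behind the tests of circular RNAs. The labels name cardiac fibroblasts but give no sort or gate on cell type, and they are silent on whether replicates were different mice or pools. The p-values here therefore speak of the spread among libraries, part of which may be technical. The comparison addresses how the circular RNA content of fibroblasts differs between an early and a later stage of pressure overload.

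A circular RNA forms when the spliceosome joins the end of a downstream exon back onto the beginning of an exon that lies upstream. The closed molecule has no free ends and is usually long-lived, and it is recognised in sequencing by reads that cross this back-splice junction. Cardiac fibroblasts make and remodel the extracellular matrix of the heart, and under pressure overload they are known to proliferate early and to turn into matrix-producing myofibroblasts. A circular RNA shares its promoter with the linear transcript of its host gene, so a difference in its reads may come from transcription, splicing or turnover, which junction reads cannot tell apart. In bulk libraries, fewer cells of a type and less RNA per cell cannot be told apart either.

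The joins of circular RNAs that carry the comparison are shown here as they read across the junction, with the last 25 bases of the downstream exon in lower case and the first 25 bases of the upstream exon in capitals. The set holds the lower Bub1b, Prim2 and Runx1, the higher Sptlc2, Dock1, Bcl2l13, Unc13b, Epn2 and Mmp15, and the abundant Nfix and Med13l. All were read from GENCODE M21 transcripts of the build GRCm38, which is mm10. Exons between the ends, and lengths, are those annotated in a chosen transcript. Junction reads do not show which of these exons a circle holds.
Bub1b exons 17 to 19, chr2:118631759-118635277, plus strand: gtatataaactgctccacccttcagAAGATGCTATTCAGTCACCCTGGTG
Prim2 exons 6 to 7, chr1:33628395-33630433, minus strand: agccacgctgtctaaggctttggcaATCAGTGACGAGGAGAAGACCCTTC
Runx1 exons 5 to 6, chr16:92644154-92668812, minus strand: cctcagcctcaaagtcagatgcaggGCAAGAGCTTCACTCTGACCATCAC
Sptlc2 exons 5 to 6, chr12:87346708-87350385, minus strand: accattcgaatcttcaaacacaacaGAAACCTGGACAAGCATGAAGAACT
Dock1 exons 26 to 27, chr7:134874058-134876315, plus strand: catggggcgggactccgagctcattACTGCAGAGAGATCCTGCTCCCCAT
Bcl2l13 exons 5 to 6, chr6:120870766-120876346, plus strand: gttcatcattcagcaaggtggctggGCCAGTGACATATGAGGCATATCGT
Unc13b exons 2 to 6, chr4:43087903-43101874, plus strand: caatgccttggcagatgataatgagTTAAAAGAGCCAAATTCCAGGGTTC
Epn2 exons 4 to 7, chr11:61532518-61535383, minus strand: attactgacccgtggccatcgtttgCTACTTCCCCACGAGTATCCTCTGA
Mmp15 exons 2 to 3, chr8:95365314-95366422, plus strand: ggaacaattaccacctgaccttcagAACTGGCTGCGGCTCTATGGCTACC
Nfix exon 2, chr8:84771784-84772315, minus strand: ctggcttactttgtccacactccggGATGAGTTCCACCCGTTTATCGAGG
Med13l exon 2, chr5:118593333-118593570, plus strand: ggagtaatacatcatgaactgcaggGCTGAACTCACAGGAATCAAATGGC
In the Nfix and Med13l circles a single exon is closed on itself, so that its last bases run directly into its first.

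The deposited value of a circular RNA is a whole number of junction reads divided by a factor of the library, with 0.01 added; the offset was removed, and values are given below as normalized reads. The 4 libraries of TAC at 4 weeks were the deepest of the comparison. They held 6846, 7931, 7997 and 9146 junction reads, and those at 1 week 3595, 5977, 5446 and 5811. The means were 7980 ± 940 reads at 4 weeks and 5207 ± 1097 reads at 1 week (SD, n = 4 each), a ratio of 1.53, and the groups did not overlap (two-sided exact permutation p = 0.0286, the lowest value reachable with 4 libraries a group, and 0.0429 adjusted by the Benjamini-Hochberg method over 3 such tests). One read was therefore worth 0.642 to 0.845 normalized reads at 4 weeks and 0.959 to 1.54 at 1 week. More circular RNAs had a read in the deeper libraries, 1450, 1475, 1499 and 1574 at 4 weeks and 1165, 1430, 1348 and 1373 at 1 week (exact permutation p = 0.0286, adjusted 0.0429). With every library rarefied to 3595 reads, the depth of the shallowest one, 1185, 1167, 1183 and 1207 circular RNAs were expected at 4 weeks and 1165, 1204, 1173 and 1177 at 1 week. The groups then overlapped, with means of 1185 ± 16.8 at 4 weeks and 1180 ± 16.9 at 1 week (exact permutation p = 0.6).

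**Figure D1:**
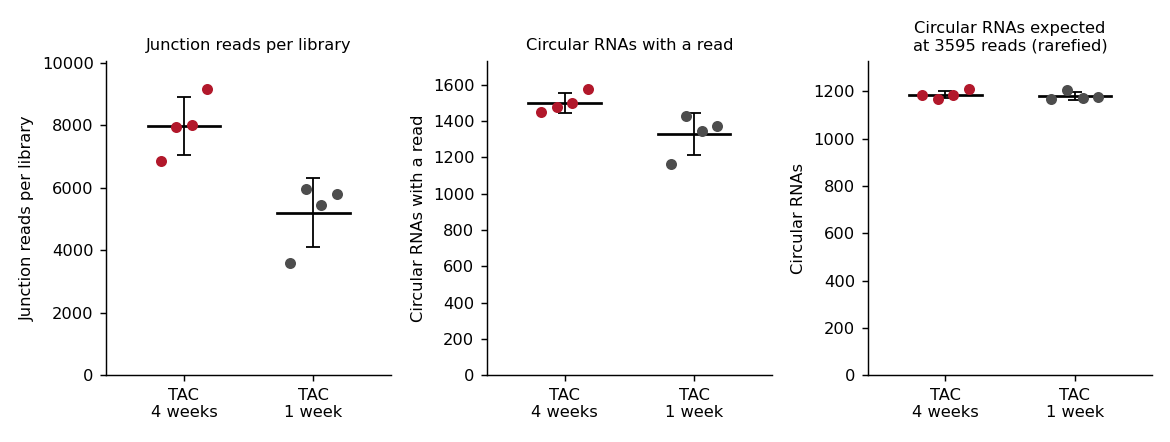
Junction reads per library, circular RNAs with at least 1 read, and circular RNAs expected after rarefying each library to 3595 reads, for TAC at 4 weeks (red) and TAC at 1 week (grey). Points are libraries, the bar is the mean and the whiskers are 1 SD (n = 4 each); the groups are apart in the first and second panels and overlap in the third.

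One host gene passed the test, and no single circular RNA did. The circular RNAs of Bub1b, which encodes the BubR1 protein of the mitotic spindle checkpoint, fell when summed over their host. The 3 Bub1b circles together measured 7.61, 6.60, 5.81 and 1.29 normalized reads at 4 weeks and 41.5, 23.96, 17.97 and 16.5 at 1 week. Every 4-week library lay below every 1-week library, and 4-week replicate 4 was the lowest. The SD was 2.79 at 4 weeks and 11.5 at 1 week (n = 4 each), and the log2 fold change -2.24 ± 0.46 SE (limma, Benjamini-Hochberg adjusted p = 0.00399; 95% interval -3.16 to -1.32). This was the 1 call among 1188 host totals, 0.0842% of those tested, while 72 hosts, 6.06%, had an unadjusted p under 0.05. Without 4-week replicate 4 the log2 fold change was -1.74 and the adjusted p 0.276, and without 1-week replicate 1, which held the highest value and the fewest reads, they were -1.97 and 0.0572.

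The 3 Bub1b circles had fold changes of the same sign, though they share a host and are not independent. Exons 17 to 19, whose join is given above, supplied most of the reads. The annotated exons between these ends come to 392 nucleotides. This circle measured 7.61, 5.87, 3.63 and 0.642 normalized reads at 4 weeks and 35.4, 19.2, 9.98 and 10.7 at 1 week. It had 23 reads in all at 4 weeks and 64 at 1 week. All 4-week libraries were below all 1-week libraries, yet the log2 fold change of -2.10 ± 0.54 did not pass over all circular RNAs (limma adjusted p = 0.184). Exons 16 to 17 (chr2:118630945-118631899) were at -1.79 and exon 9 alone (chr2:118617706-118617935) at -1.68, with adjusted p of 0.852 and 0.875 in limma. Sham libraries gave a Bub1b total of 9.67 ± 3.44 normalized reads at 4 weeks (n = 5) and 6.92 ± 3.07 at 1 week (n = 4). At 8 weeks TAC gave 11.9 ± 2.69 (n = 3) and sham 6.00 ± 1.26 (n = 4). The highest Bub1b values of these groups were thus those of TAC at 1 week. The mean of TAC at 4 weeks, 5.3 ± 2.8, was the lowest but lay near those of sham at 1 week and 8 weeks.

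The host with the next smallest p was Atxn1, which encodes the chromatin-associated protein ataxin 1, and its total did not pass. Its 6 circles summed to 54.1, 59.4, 47.2 and 50.1 normalized reads at 4 weeks and 32.3, 36.4, 23.96 and 15.6 at 1 week, so the groups did not overlap. The log2 fold change was 1.01 ± 0.25 (limma adjusted p = 0.0624). The call turned on single libraries: it was 1.18 without 1-week replicate 2 (adjusted p = 0.0101) and 1.12 without 1-week replicate 1 (adjusted p = 0.0427), both past the threshold, and 0.78 without 1-week replicate 4 (adjusted p = 0.448). Leaving out any other of the 8 libraries gave adjusted p of 0.0645 to 0.289. Sham libraries measured 50.4 ± 5.83 at 4 weeks and 54.8 ± 17.4 at 1 week. After Atxn1 came Lncpint, a long noncoding RNA induced by p53, with 3 circles (2.01 ± 0.54, adjusted p = 0.0986), Sptlc2 (adjusted p = 0.0986), Bcl2l13 (1.92, adjusted p = 0.191) and 2010111I01Rik (2.03, adjusted p = 0.267) among the higher totals. Below Bub1b, the next lower totals were single circles of Ccnb1ip1, Prim2, Runx1 and Actb, each at an adjusted p of 0.512 in limma.

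**Figure D2:**
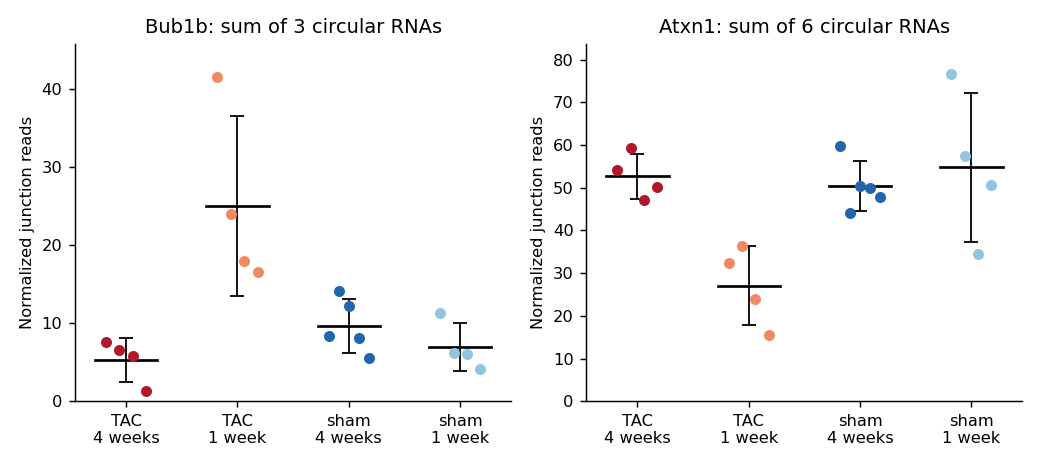
Normalized junction reads summed over the circular RNAs of Bub1b and of Atxn1, in TAC at 4 weeks and 1 week and in sham at 4 weeks and 1 week. Points are libraries, bars are means and whiskers are 1 SD (n = 4, 4, 5 and 4); the TAC groups do not overlap for either gene, and the sham groups overlap for both.

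Among single circular RNAs, limma called 0 of 1717 (0.0%) between TAC at 4 weeks and TAC at 1 week at an adjusted p of 0.05. At an unadjusted p under 0.05 there were 88, 5.13% of those tested: 62 higher at 4 weeks (3.61%) and 26 lower (1.51%). The 4 libraries of 4 weeks were all above the 4 of 1 week for 40 circular RNAs (2.33%) and all below for 32 (1.86%). On the same reads limma-voom called 1, exons 17 to 19 of Bub1b (log2 fold change -2.25, adjusted p = 0.00546). The same circle was also called over the 272 circular RNAs with a mean of at least 5 reads (adjusted p = 0.0434).

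The lean towards higher values depended on how depth was handled. As deposited, 57.7% of the fold changes were positive with a median log2 fold change of 0.14. With every library thinned to 3595 reads, the median over 20 thinnings was 0.00, and 50 circular RNAs were higher and 50 lower at an unadjusted p under 0.05, with 0 called in the median thinning and 0 to 4 over the 20. Scaling by total junction reads gave a median of 0.09 and 59 higher against 32 lower. TMM scaling gave a median of 0.23 and 91 higher against 22 lower, and limma-voom a median of -0.07 and 44 higher against 81 lower. The 10 higher and 10 lower circular RNAs with the smallest p, described next, were chosen on the values as deposited. Their log2 fold changes there were at least 0.88 in size.

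**Figure D3:**
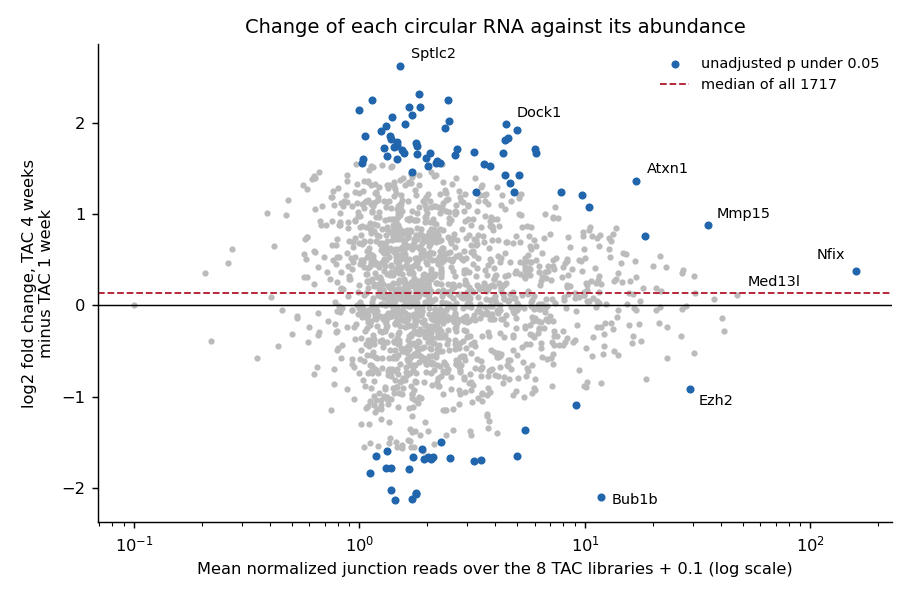
Log2 fold change of TAC at 4 weeks against TAC at 1 week (vertical) for each of the 1717 circular RNAs, against its mean normalized reads over the 8 libraries plus 0.1 (horizontal, log scale). Blue points have an unadjusted p under 0.05, of which 62 are higher and 26 lower; the dashed line is the median of 0.14, and no point passed after adjustment.

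Intervals were wider for circular RNAs with fewer reads, and the part of depth in this was not tested. The 95% interval of a fold change had a median half-width of 1.56 on the log2 scale, or 2.95-fold in either direction. In the 88 circular RNAs with a mean of 10 reads or more it was 0.82, or 1.77-fold, and for 29 of them the whole interval lay within a 2-fold difference in either direction. No circular RNA with fewer reads had such an interval. Each of the 8 libraries had a read for 593 circular RNAs. There were 20 with no read in any 1-week library and 3 with no read in any 4-week library, 1 of them with no read in either. In 3, all 4 libraries of 4 weeks and none of 1 week had a read. They were singled out after their values were seen: Sptlc2, Nid1, which encodes the basement membrane protein nidogen 1, and Rftn1, a lipid raft protein. No circular RNA had the opposite pattern.

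The 10 higher circular RNAs with the smallest p belong to genes of varied function, and none of them passed (limma adjusted p 0.184 to 0.646). Exons 2 to 3 of Atxn1 (chr13:45852328-45956575), which are untranslated, measured 21.1, 26.4, 22.5 and 21.8 normalized reads at 4 weeks and 9.23, 21.1, 8.99 and 2.92 at 1 week. The groups did not overlap, though 1-week replicate 2 lay just under the lowest 4-week library, and the 4-week values were close together (log2 fold change 1.36 ± 0.37, limma adjusted p = 0.184). Exons 2 to 4 of the same gene (chr13:45795509-45956575) begin at the same splice site. They measured 14.0 ± 3.35 at 4 weeks and 6.71 ± 2.73 at 1 week, also without overlap (limma adjusted p = 0.754). Each of these has a scarce twin in the table that begins a few bases inside, at position 45956572, away from the annotated exon boundary. The twins had 10 reads and 8 reads at 4 weeks and 1 read each at 1 week.

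Sptlc2 encodes a subunit of serine palmitoyltransferase, which begins sphingolipid synthesis. Its circle of exons 5 to 6 had 5.07, 1.47, 2.18 and 2.57 normalized reads at 4 weeks, from 15 reads in all, and no read in any 1-week library. It was at least 3.37-fold higher at 4 weeks than a floor of 3 reads over the 1-week group, and the 4-week count itself is small. Sham libraries had 3.24 ± 1.54 at 4 weeks and 2.78 ± 0.321 at 1 week, so the absence was seen in TAC at 1 week alone among these 4 groups.

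Dock1 activates the small GTPase Rac, which drives actin remodelling and cell movement. Its circle of exons 26 to 27 measured 3.38, 9.54, 3.63 and 11.6 normalized reads at 4 weeks and 0, 3.83, 0.998 and 1.95 at 1 week (1.98 ± 0.58, limma adjusted p = 0.26). The groups overlapped, since 1-week replicate 2 exceeded a pair of 4-week libraries. Other Dock1 circles did not share the size of the difference, with exons 49 to 51 at 0.94 and exons 2 to 5 at -0.56.

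Bcl2l13, a mitochondrial outer membrane protein of the BCL2 family, had 5.07, 8.80, 8.71 and 7.71 normalized reads in exons 5 to 6 at 4 weeks and 3.08, 3.83, 2.00 and 0 at 1 week. All 4-week libraries were above all 1-week libraries (1.92 ± 0.57, limma adjusted p = 0.298). Unc13b, which primes vesicles for release, had 9.30, 10.3, 6.54 and 9.64 in exons 2 to 6 at 4 weeks and 1.54, 5.75, 3.00 and 0.973 at 1 week, again without overlap (1.71 ± 0.54, adjusted p = 0.468). Epn2, an endocytic adaptor of the epsin family, had 8.45, 9.54, 1.45 and 8.35 in exons 4 to 7 at 4 weeks and 0, 0.959, 4.99 and 1.95 at 1 week. The groups overlapped through 4-week replicate 3 (1.83 ± 0.61, adjusted p = 0.546).

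Mmp15 encodes a membrane-bound metalloproteinase that cleaves matrix proteins, and its circle was the most abundant of the 10. Its circle of exons 2 to 3 measured 38.9, 60.9, 44.3 and 35.3 normalized reads at 4 weeks and 32.3, 22.1, 14.0 and 31.1 at 1 week, with means of 44.9 ± 11.3 at 4 weeks and 24.9 ± 8.58 at 1 week. The 4-week libraries were all higher, yet the log2 fold change of 0.88 ± 0.29 did not pass (limma adjusted p = 0.546). The remaining 3 rested on few reads: Lncpint exons 2 to 3 on 23 at 4 weeks and 2 at 1 week, Mtmr3 exons 2 to 4 on 21 at 4 weeks and 4 at 1 week, and Phf21a exons 13 to 15 on 17 at 4 weeks and 1 at 1 week. Mtmr3 encodes a phosphoinositide phosphatase and Phf21a a subunit of a histone demethylase complex. Their log2 fold changes were 2.02 for Mtmr3, 2.25 for Lncpint and 2.31 for Phf21a.

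The 10 lower circular RNAs were led by Bub1b and did not pass either (limma adjusted p 0.184 to 0.852). Prim2, the large subunit of DNA primase, had 0, 2.20, 0 and 0 normalized reads in exons 6 to 7 at 4 weeks and 1.54, 3.83, 3.00 and 2.92 at 1 week. Among the 4-week libraries only replicate 2 had reads of it, 3 in number, and it overlapped the 1-week group (-2.07 ± 0.76, adjusted p = 0.646). Runx1, a transcription factor of blood cell development, had 0, 0, 1.45 and 0 in exons 5 to 6 at 4 weeks and 4.61, 2.88, 0.998 and 2.92 at 1 week, from 2 reads at 4 weeks and 10 reads at 1 week (-2.13 ± 0.80, adjusted p = 0.646). The groups overlapped through 4-week replicate 3 and 1-week replicate 3.

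Ezh2, the histone methyltransferase of Polycomb repressive complex 2, had the most abundant circle among the lower 10. Its circle of exons 2 to 3 (chr6:47576536-47577667) measured 17.8, 15.4, 24.7 and 20.6 normalized reads at 4 weeks and 23.1, 43.1, 34.9 and 52.5 at 1 week. The means were 19.6 ± 3.99 at 4 weeks and 38.4 ± 12.5 at 1 week, and 4-week replicate 3 exceeded 1-week replicate 1, so the groups overlapped (-0.91 ± 0.39, limma adjusted p = 0.852). Sham libraries averaged 12.9 ± 8.01 at 4 weeks and 12.5 ± 5.13 at 1 week. The Ezh2 total over 3 circles was 25.9 ± 5.35 at 4 weeks and 48.5 ± 16.0 at 1 week (-0.85, adjusted p = 0.767). With limma-voom that total was called (-0.98, adjusted p = 0.0221).

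The other 6 of the lower 10 had 1 to 12 reads at 4 weeks and 7 to 28 at 1 week. Ccnb1ip1, a ubiquitin ligase that acts in meiotic crossing over, had 2.54, 3.67, 0.726 and 1.93 normalized reads at 4 weeks and 7.69, 4.79, 6.99 and 10.7 at 1 week, without overlap (-1.65, limma adjusted p = 0.646), but only 1 end of its junction lies at an exon boundary. The Actb junction spans 45 bases inside the last exon of the cytoplasmic actin gene with neither end at a boundary, and had 1 read at 4 weeks and 9 at 1 week. Elf2, an ETS family transcription factor, was at -2.06, Camsap1, which binds microtubule minus ends, at -2.02, the forkhead gene Foxn2 at -1.67 and Papss1, which makes the sulfate donor of sulfation, at -1.84. Their adjusted p were 0.718 to 0.852 in limma.

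**Figure D4:**
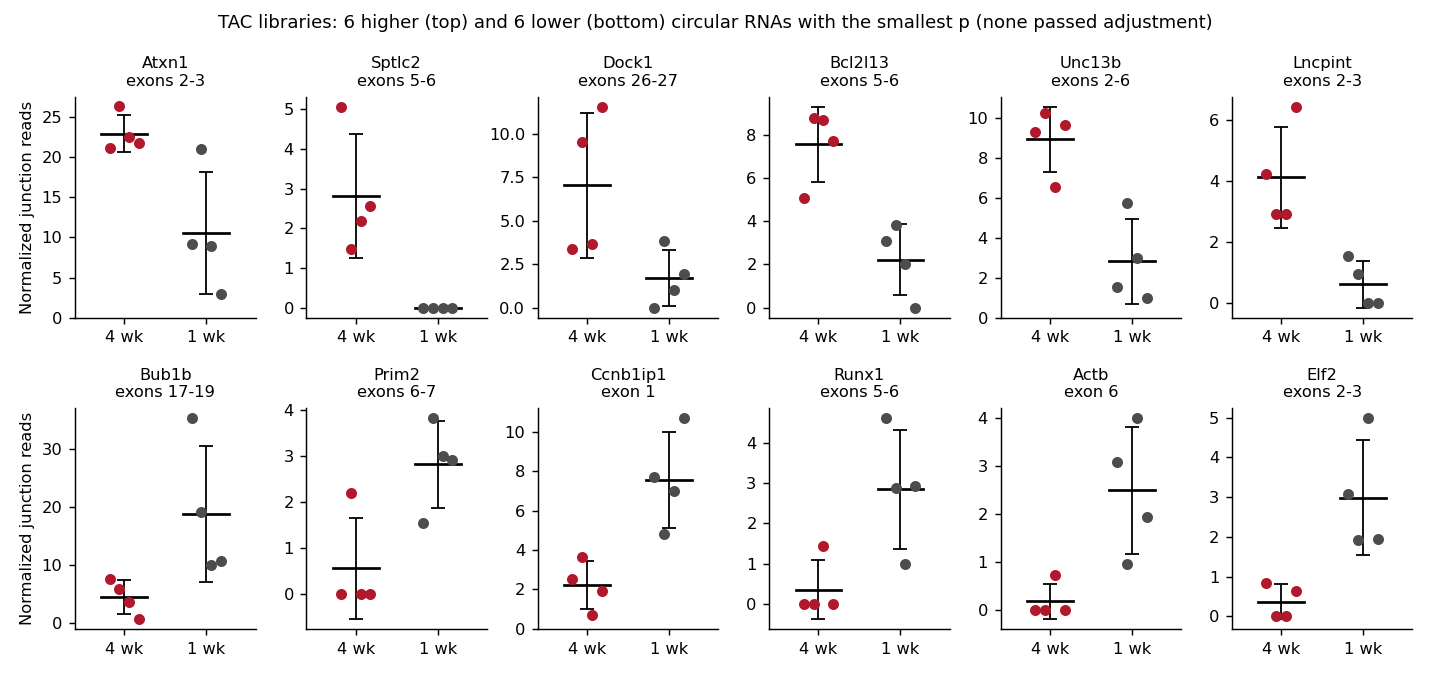
Normalized junction reads of the 6 higher (top row) and 6 lower (bottom row) circular RNAs with the smallest p, in TAC at 4 weeks (red, left) and TAC at 1 week (grey, right); the vertical axes differ. Points are libraries, bars are means and whiskers are 1 SD (n = 4 each); the groups overlap for Dock1, Prim2 and Runx1, and none of the 12 passed after adjustment.

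The 10 circular RNAs with the highest mean over the 8 libraries took 8.50% of the reads at 4 weeks and 8.34% at 1 week, and 6 of their fold changes were positive and 4 negative. These are reads across a single join, so no length enters the ranking. Nfix, a nuclear factor I transcription factor, led with 182.6, 220.1, 147.4 and 166.4 normalized reads at 4 weeks and 179.9, 143.8, 141.8 and 95.3 at 1 week. The groups overlapped (0.37 ± 0.15, limma adjusted p = 0.828), and its share of the reads was 3.06% at 4 weeks and 2.43% at 1 week.

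Med13l, of the Mediator kinase module, had 49.2 ± 10.1 normalized reads at 4 weeks and 45.1 ± 6.06 at 1 week, a log2 fold change of 0.11 with a 95% interval of -0.35 to 0.57. Rnf169, a ubiquitin-binding protein of the DNA damage response, was at 0.07 (interval -0.50 to 0.64) and Rad52, a DNA repair protein, at 0.13 (-0.48 to 0.75). Rnf169 turned negative in 5 of the alternative settings, by at most -0.13. Nfkb1, the precursor of an NF-kappa-B subunit, was at -0.28, Lrch3 exons 2 to 6 at -0.14 and Phf21a exons 2 to 6 at 0.32. A p-value that misses the threshold does not show that the levels were equal, and the intervals give what these libraries allow.

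Host genes with several circular RNAs gave no common direction. Of 318 hosts with at least 2, which hold 847 circular RNAs, all fold changes were positive in 104, all were negative in 46 and 168 had both signs, against 57.7% positive over all circular RNAs. Circular RNAs of coding exons alone had a median log2 fold change of 0.18 (1378 circles), and those that joined coding and untranslated exons one of -0.03 (291 circles). The 126 circles of a single exon had a median of -0.10, those of 2 to 3 exons 0.16, those of 4 to 6 exons 0.20 and the 124 of 7 or more exons 0.05. The 27 circles of untranslated exons alone had a median of 0.26 and the 21 noncoding ones of 0.04. At equal depth the medians were 0.01 for coding exons alone, -0.17 for coding and untranslated exons and -0.21 for single exons. These are descriptions, since circles of one host and exon class share their source. The exon classes follow the annotated exons between the ends, which junction reads do not show.

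Mitosis and DNA replication genes were the list that held the one call at host level. Of 81 genes listed, 10 had 15 circular RNAs, of which 0 were called, 6 fold changes were positive and 9 negative, and the median was -0.13, beside 0.14 over all. At an unadjusted p under 0.05 there were 4 lower, 3 of them Bub1b and the other Prim2, and 1 higher, Esco1, an acetyltransferase of sister chromatid cohesion (10.8 ± 4.47 at 4 weeks and 4.75 ± 3.42 at 1 week, 1.24, limma adjusted p = 0.864). Over all circular RNAs 1.51% were lower and 3.61% higher at that p, and the 3 Bub1b circles share a host. The list summed to 27.0 to 39.2 normalized reads at 4 weeks and 43.8 to 51.8 at 1 week, without overlap. Without Bub1b the sums were 21.3 to 33.4 at 4 weeks and 9.23 to 27.8 at 1 week, with 6 positive and 6 negative fold changes. Cdkn3, which removes phosphate from cyclin-dependent kinases, was at -1.36, and Anapc1, a subunit of the anaphase-promoting complex, at 1.03 in exons 8 to 9, neither past the test.

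No circular RNA of any of the 17 host gene lists was called. List medians are as deposited unless said otherwise. At equal depth they were 0.10 for integrin, adhesion and actin, -0.06 for extracellular matrix and -0.04 for chromatin regulators. Mitosis and replication genes were then at -0.32, Mediator and stress regulators at 0.29 and leukocyte markers at -0.47. Endothelial markers were at 0.20 and resting fibroblast markers at 0.00, beside 0.00 over all circular RNAs. Integrin, adhesion and actin genes had 51 circular RNAs with 33 positive and 18 negative fold changes and a median of 0.25, where 57.7% were positive over all with a median of 0.14. Of them 6 had an unadjusted p under 0.05, all higher, beside 3.61% higher and 1.51% lower over all circular RNAs. Among the 6 were Dock1 and Ptk2 exons 2 to 4, of the focal adhesion kinase (6.17 ± 1.41 at 4 weeks and 3.33 ± 2.26 at 1 week). Against these stood the most abundant of the list, Tns3 exons 14 to 16 of the integrin adaptor tensin 3, with 20.3, 12.5, 13.8 and 7.71 normalized reads at 4 weeks and 30.8, 25.9, 21.96 and 15.6 at 1 week (-0.81, limma adjusted p = 0.875), where the groups overlapped. The sums of the list were 146.5 to 171.6 at 4 weeks and 119.8 to 159.9 at 1 week.

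Extracellular matrix genes had 25 circular RNAs, 15 positive and 10 negative, with a median of 0.09. Mmp15 led them, Nid1 exons 4 to 7 had 2.07 ± 1.00 normalized reads at 4 weeks and none at 1 week, and a junction inside the last exon of Sparc, a collagen-binding matricellular protein, was at -1.66 (adjusted p = 0.875). TGF-beta, BMP and SMAD genes had 18 circular RNAs, 10 positive and 8 negative (median 0.08), with Smad4, the common partner SMAD, at 0.31 in exons 5 to 8, 1.67 in exons 6 to 8, 0.41 in exons 5 to 10, -0.04 in exons 2 to 4 and -0.55 in exons 2 to 8, none past the test. Wnt and Hippo genes (24 circles, median -0.02) and receptor tyrosine kinase and MAPK genes (36 circles, median 0.00) were split evenly, at 12 to 12 and 18 to 18. Chromatin regulators, the list of Ezh2 and Phf21a, had 44 positive and 37 negative fold changes among 81 circular RNAs and a median of 0.12.

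Widely reported circular RNA hosts had 99 circular RNAs, 65 positive and 34 negative, with a median of 0.28 as deposited and 0.10 at equal depth. Their sums were 689.9 to 772.4 normalized reads at 4 weeks and 582.7 to 679.7 at 1 week, and stayed apart without Nfix (539.5 to 572.2 at 4 weeks, 485.5 to 530.0 at 1 week). The totals over all circular RNAs were also apart, at 5786 to 5875 at 4 weeks and 5437 to 5729 at 1 week. The list sums were not rescaled to equal totals, and the part of the totals in their separation was not tested. Atxn1 belongs to this list, with mean totals of 52.7 normalized reads at 4 weeks and 27.1 at 1 week. Without Nfix the list averaged 554.0 at 4 weeks and 504.5 at 1 week. Sums without Atxn1 were not computed. RNA-binding and splicing genes had a median of 0.15 (39 circles), ubiquitin ligases of 0.22 (46), Mediator and stress regulators of 0.30 (20) and DNA repair genes of 0.24 (6).

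**Figure D5:**
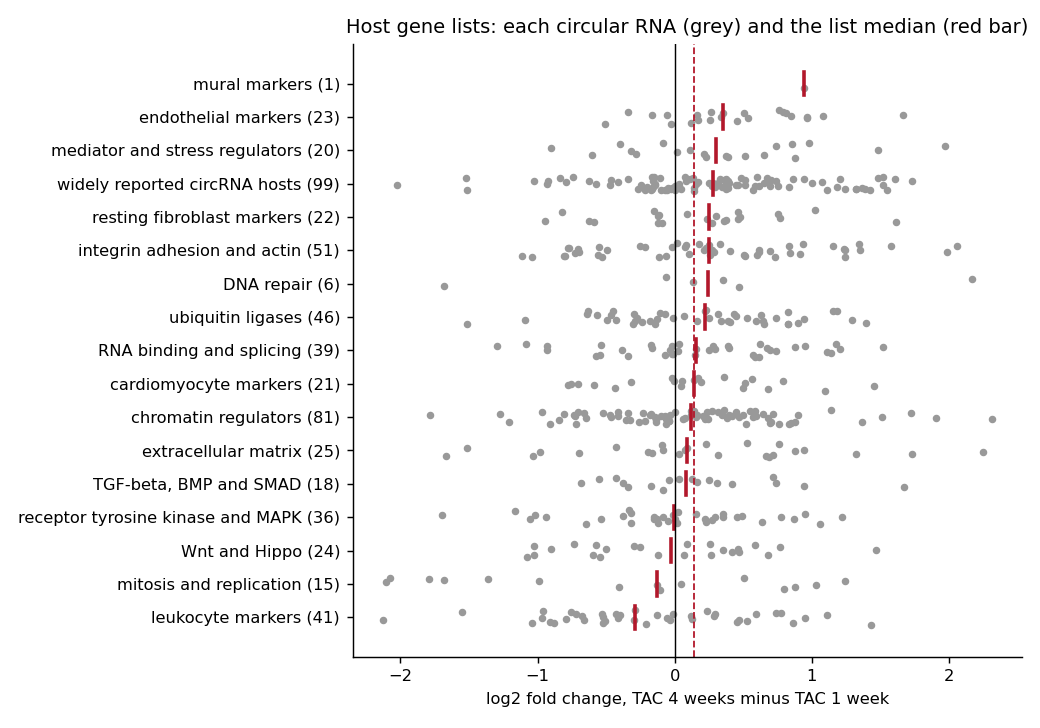
Log2 fold change of TAC at 4 weeks against TAC at 1 week for each circular RNA (grey) of 17 host gene lists, with the list median (red bar) and the number of circular RNAs in brackets. The solid line is 0 and the dashed line the median of 0.14 over all 1717; list medians run from -0.29 for leukocyte markers to 0.94 for the single mural circular RNA.

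Markers of cell types were set beside these results, because no sort is named. Of the defining markers of fibroblasts, Pdgfra, Tcf21, Ddr2, Col15a1 and Thy1 have no circular RNA in the table, and Dcn had 0.894 normalized reads at 4 weeks and 0.884 at 1 week, so the label could not be tested on them. The 22 circular RNAs of 14 resting fibroblast markers, Nfix among them, summed to 204.1 to 266.3 at 4 weeks and 145.9 to 226.1 at 1 week, and without Nfix to 44.0 to 54.9 at 4 weeks and 42.9 to 50.8 at 1 week. Cardiomyocyte markers (21 circles, 13 positive and 8 negative fold changes) summed to 39.9 to 65.5 at 4 weeks and 48.9 to 59.3 at 1 week, with means of 52.2 ± 10.6 at 4 weeks and 54.7 ± 4.51 at 1 week. Of the defining ones, Myh6, Tnnt2 and Actn2 have no circular RNA in the table, while Ttn totalled 15.5 at 4 weeks and 12.2 at 1 week, and Ryr2 4.47 at 4 weeks and 1.92 at 1 week. The Ryr2 total did not pass with all libraries (1.89, limma adjusted p = 0.274) and did without TAC 1-week replicate 2 (2.73, adjusted p = 0.0101). Endothelial markers (23 circles, 18 of them with positive fold changes, median 0.35) summed to 61.7 to 74.1 at 4 weeks and 33.9 to 78.8 at 1 week. Cdh5 and Kdr have none there, and Pecam1 totalled 12.7 at 4 weeks and 8.65 at 1 week.

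Leukocyte markers had 41 circular RNAs with 15 positive and 26 negative fold changes, a median of -0.29 and sums of 101.7 to 181.2 at 4 weeks and 113.8 to 239.9 at 1 week. The 6 circles of Adgre1, which encodes the macrophage receptor F4/80, made up much of this, with 49.9, 68.2, 16.7 and 41.8 normalized reads at 4 weeks and 95.3, 72.9, 63.9 and 30.2 at 1 week, and the groups overlapped (-0.62 ± 0.28, limma adjusted p = 0.767). Ptprc, Csf1r and Cd68 have no circular RNA in the table, and the median was -0.06 without Adgre1. Mural markers had 1 circle, of Abcc9, at 5.00 ± 1.17 at 4 weeks and 2.62 ± 1.54 at 1 week, and Rgs5, Pdgfrb, Cspg4 and Myh11 had none. The sums of all 5 cell type lists overlapped between the times, and their part in the Bub1b result was not tested.

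Whether the interval mattered as such was asked of the sham libraries in the same fit. Between sham at 4 weeks (n = 5) and sham at 1 week (n = 4), limma called 0 of 1717 (0.0%), and 130 (7.57%) had an unadjusted p under 0.05, 81 of them higher (4.72%) and 49 lower (2.85%). The difference between the TAC change and the sham change was called for 0 circular RNAs (0.0%), with 138 (8.04%) at an unadjusted p under 0.05, of which 75 were positive (4.37%) and 63 negative (3.67%). Limma-voom called 0 for both. Across the 272 circular RNAs with a mean of at least 5 reads, the TAC and the sham changes, which share no library, had a Pearson correlation of -0.145, and it was -0.071 over all; genes are not independent replicates, so this is a description.

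The smallest p of such a difference was that of Efnb2, which encodes the membrane-bound ligand ephrin B2 of arterial endothelium. Its circle of exon 2 (chr8:8639206-8639489) measured 8.45, 4.40, 7.99 and 10.3 normalized reads in TAC at 4 weeks and 0, 1.92, 2.00 and 12.7 in TAC at 1 week. In sham it measured 1.64 ± 1.43 at 4 weeks and 6.74 ± 3.93 at 1 week. The TAC change of 1.67 and the sham change of -1.92 differed by 3.58 ± 0.86 (limma adjusted p = 0.0658). That difference did not pass with all libraries and did when sham 1-week replicate 1, TAC 1-week replicate 4 or sham 4-week replicate 3 or 5 was left out (adjusted p 0.00225 to 0.0318).

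Among the others named by smallest p of this difference, Vav3 was at 2.75, Lrch3 exons 10 to 13 at 2.52, the chromatin reader gene Zmynd11 at 3.41 and Mmp15 at 1.22. For Bub1b exons 17 to 19 it was -2.57 ± 0.75 (limma adjusted p = 0.283), with a sham change of 0.46. Arhgef40 was at -3.84 with no read in any sham 1-week library, Tcf20 at -2.50, the Actb junction at -3.67 and Prr14l at -2.82. For Tcf20 the TAC change was -0.47 and the sham change 2.03. None of the 10 passed (limma adjusted p 0.0658 to 0.436).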

How the data were processed

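Total RNA freed of ribosomal RNA was made into stranded libraries and read from both ends, per the labels' protocols. FastQC, Trimmomatic and STAR were used with the build mm10, per the submitters' processing notes, and settings of the circular RNA caller were not given in the sources used here. What the authors deposited is a normalized signal: after subtraction of 0.01, dividing by a library-specific step returned whole junction reads (100% of 41208 values within 0.001 of a read). The authors' factors were kept, which brings the deeper 4-week libraries close to the common scale but leaves them with more circular RNAs read. Normalized totals stayed slightly higher in TAC at 4 weeks, at 5786 to 5875, than in TAC at 1 week, at 5437 to 5729. The main test was limma 3.58.1 (R 4.3.3), its variance prior following the mean, on log2(value + 0.5), over 24 libraries in 6 groups without covariate, with Benjamini-Hochberg adjustment over all circular RNAs or all hosts. This scale understates the change of scarce circular RNAs. Host genes came from GENCODE M21 on the same build: 1666 junctions had both ends at exon boundaries, 36 had 1 end and 15 none, and 22 had several candidate hosts, so their host is uncertain. No pair of the 12 within the TAC groups agreed within counting noise (largest chi-square p 1.14e-05).

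With none called, the rule for naming took 10 circular RNAs per direction by smallest p, the 10 most abundant, the 2 most abundant of each list, and 5 per direction for the TAC minus sham difference and host totals. Other list members and other circles of named hosts were chosen after their values were seen. The members, lists and tests were chosen with earlier results of these data known. Floors are 3 reads over a group and cover counting error only. Alternatives were pseudocounts of 0.1 and 1, TMM and total-read scaling, a mean of at least 5 reads, limma-voom, the compared groups alone, the replicate number as a block, thinning of every library to 3595 reads (20 draws) and each library left out.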

Additional observations from a re-analysis of the deposited data

Results flagged for a closer look

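Single libraries stood far from the other 3 of their group in 9 of 94 groups examined. In 6 of the 9 the other 3 libraries had no read, so that any read at all stands apart and the rate of about 1 in 20 that chance gives for continuous values does not apply. The other 3 cannot be set against that rate either, because some of the groups belong to circular RNAs chosen by their values. In TAC at 4 weeks, replicate 2 had 2.20 normalized reads of Prim2 and 0.734 of Papss1, and replicate 3 had 1.45 of Runx1 and 0.726 of Actb, with 0 in the other 3 libraries each. Replicate 1 had 0.845 of Camsap1, again with 0 in the others. Epn2 in replicate 3 of the same group was at 1.45, below 8.35 to 9.54 in the other 3. The single mural marker circle, of Abcc9, was at 6.76 in replicate 1, above 4.36 to 4.50. In TAC at 1 week, replicate 1 had 1.54 of Phf21a exons 13 to 15, with 0 in the other 3, and the summed integrin, adhesion and actin list was at 119.8 in replicate 3, below 154.3 to 159.9. Where the others were at 0, the value stood for 1 to 3 reads.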

How the results depend on the processing

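Calls between TAC at 4 weeks and TAC at 1 week numbered 0 as deposited, 1 at a pseudocount of 0.1 (Sptlc2), with a mean of at least 5 reads (Bub1b) and with limma-voom (Bub1b), and 0 to 1 with a library left out (Atxn1 exons 2 to 3 without TAC 1-week replicate 2, adjusted p = 0.0157). Chosen after seeing the data, a fit without the sham 1-week libraries called 2 (Bub1b and Atxn1); without TAC 1-week replicate 1 and with a mean of at least 5 reads it called 0. Host totals called numbered 1 as deposited, 3 each at a pseudocount of 0.1 (Bub1b, Sptlc2, Atxn1), with TMM (Bub1b, Atxn1, Lncpint) and with limma-voom (Bub1b, Atxn1, Ezh2), and 0 to 6 with a library left out: 0 without TAC 4-week replicate 4, 2 without TAC 1-week replicate 1 and 6 without TAC 1-week replicate 2. Bub1b was called in all but the fits without TAC 4-week replicate 4 or TAC 1-week replicate 1, with thinning taken by its median. Single thinnings called 0 to 4 host totals, so Bub1b was not called in every thinning. The difference of the TAC and sham changes was called for 0 to 1 and the sham change for 0 to 4 with a library left out, and the sham change for 1 with a mean of at least 5 reads. Same-numbered TAC libraries deviated together by correlations of 0.114, 0.075, 0.11 and 0.048, not all above 0.1. Those of different numbers ran from -0.243 to 0.271. The numbers were not taken as pairs, though these values do not decide whether they mark pairs. With the replicate block in the compared groups, 1 circular RNA (Bub1b, limma adjusted p = 0.0169) and 2 host totals (Bub1b and Atxn1) were called, and exact sign flips within the replicate block gave p = 0.125, the smallest possible, for the difference of 2773 junction reads. That difference was 2235 (exact permutation p = 0.0571) without TAC 1-week replicate 1, and 2235 to 3151 over the libraries left out. At equal depth the difference in circular RNAs was -1.77 to 13.7. Summed cardiomyocyte markers turned from a log2 ratio of -0.09 to 0.04 with TMM and 0.03 without TAC 4-week replicate 3. Of 49 named circular RNAs, 8 changed sign in at least 1 alternative; for those chosen by smallest p the choice itself makes a change of sign unlikely. The causes were not tested. The tests by edgeR and DESeq2 on the recovered reads were not run. All of these results rest on low depth and few libraries per group, and the part of each was not tested.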
